A study of Rattus norvegicus with 4 samples.

Results

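The liver of adult rat offspring was examined for an interaction between diet and prenatal undernutrition: genes whose signal differed between the high-fat and the standard diet by a different amount in undernourished offspring than in control offspring. For each gene the log2 signal of FR30 liver was subtracted from that of HF-fed FR30 liver, and the same diet difference of the controls (HF-fed control minus control) was subtracted from the result. A positive value of this difference of differences means that the high-fat sample stood higher relative to its own standard-diet sample in FR30 than in control offspring, and a negative value the reverse. Genes entered when their detection p was under 0.05 in all 4 samples and the deposited standard deviation (STDEV) was at most 20% of the signal in each. Of 21596 genes, 8384 met this rule. FR30 is the label of offspring undernourished before birth. The groups were HF-fed FR30 (undernourished, high-fat diet), FR30 (undernourished, standard diet), HF-fed control (high-fat diet) and control (standard diet). All were male Wistar rats aged 4 months with 1 deposited liver sample per group. The sources used here give neither the number of animals behind a sample nor the fat content and duration of the diet. With 1 sample per group there is no replicate check, no test and no p-value in what follows, and a difference between animals cannot be told apart from one between groups.

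The adult liver burns, stores and exports fat, makes glucose and bile acids, and prepares hormones and foreign compounds for excretion by coupling them to glucuronic acid, sulfate or glutathione. A high-fat diet is known to alter many of these programmes, and undernutrition of the fetus is widely studied as a cause of altered metabolism in adult life. A design that crosses both exposures asks whether the second acts on the liver as it does in animals without the first, and the difference of differences is 0 for a gene on which both act additively on the log scale.

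The 4 samples had similar signal distributions. Over the 8384 genes the median signal was 504.5 in HF-fed FR30, 501.8 in FR30, 501.7 in HF-fed control and 501.4 in control liver, and the median STDEV lay between 2.86% and 3.59% of the signal. Between 9001 and 9226 genes were detected per sample. Hepatocyte identity genes were detected in every sample for 10 of the 11 measured. Adipose markers stood apart in 1 sample: the summed signal of 10 genes was 4657.3 in HF-fed FR30 and 13018.7 in FR30 liver, against 4574.0 in HF-fed control and 3663.3 in control liver, with 6 of them detected in HF-fed FR30, 8 in FR30, 5 in HF-fed control and 6 in control liver. Skeletal muscle markers, 8 genes, summed to 1331.5 in HF-fed FR30 and 2012.4 in FR30 liver, against 1329.8 in HF-fed control and 1369.2 in control liver. No adipose or muscle marker met the rule. The STDEV limit removed 76 otherwise eligible genes, all for their value in FR30 liver, and 11 of these had a difference of differences at least 2-fold negative and 0 at least 2-fold positive. Their part in the results was not tested. In a whole-tissue sample, fewer cells of a type and less RNA per cell cannot be told apart.

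Few genes showed a large interaction. The difference of differences was at least 2-fold for 61 genes (0.728% of those compared), of which 45 were positive (0.537%) and 16 negative (0.191%). Its median was -0.01 on the log2 scale, 4012 genes lay above 0 and 4372 below, and 5% of genes lay under -0.35 and 5% over 0.38. The 4 deposited STDEVs, propagated, gave a median error of 0.11, and every value below is given as the difference ± that propagated STDEV. What the STDEVs were taken over is not stated, so this error is not read as the spread between animals. All 61 genes lay at least 3.75 propagated STDEVs from 0. A distance of over 2 propagated STDEVs was common, at 2133 genes (25.4%), so the fold threshold and not this error set the count. The share of positive genes among those called, 73.8%, was 56.7% (93 positive and 71 negative genes) after normal-exponential background correction. It was 57.7% (139 and 102) after a single background level was subtracted from each sample. Without the STDEV limit it was 62.5% (45 and 27).

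**Figure D1:**
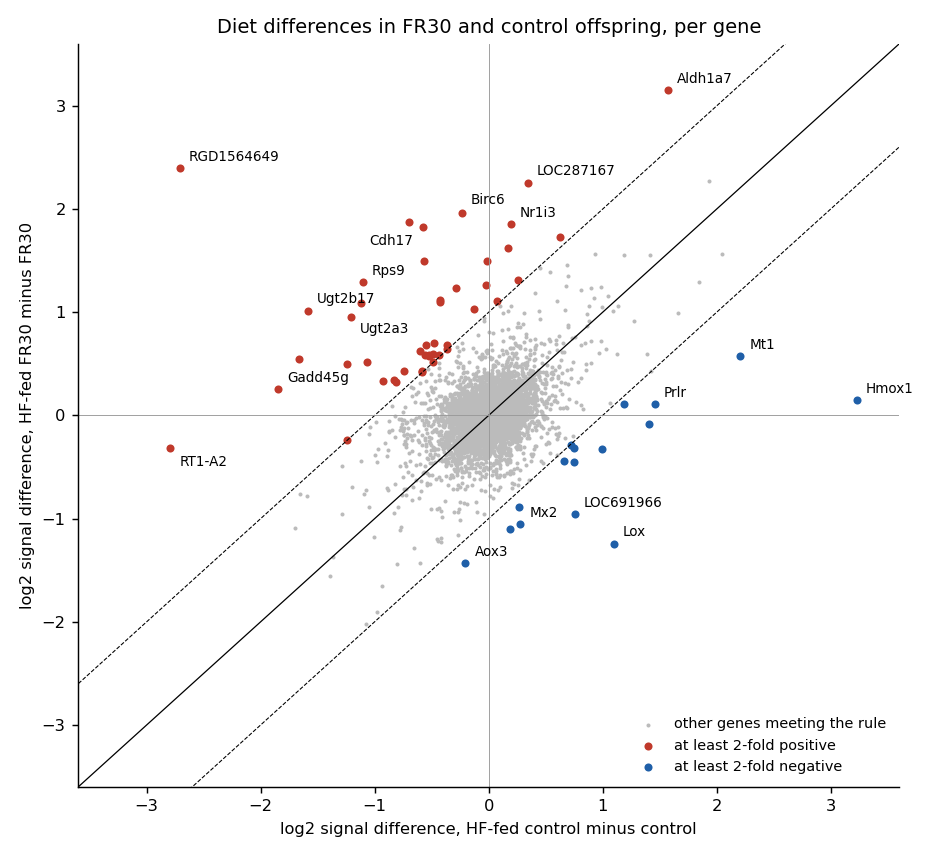
Each point is 1 of 8384 genes, with the log2 signal difference HF-fed control minus control on the x axis and HF-fed FR30 minus FR30 on the y axis. The solid line marks equal diet differences and the dashed lines a difference of 2-fold between them. The 45 positive genes lie above the upper dashed line and the 16 negative genes below the lower one, with RGD1564649 farthest out at 5.11.

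Diet differences of at least 1.5-fold in opposite directions were found for 9 genes (0.107%): in 7 the high-fat sample was the higher one in FR30 offspring and the lower one in controls, and in 2 the reverse. Over all genes compared, 1.77% were at least 1.5-fold higher and 1.2% lower in HF-fed FR30 than in FR30 liver, and 1.17% higher and 1.53% lower in HF-fed control than in control liver. The most common form among the 45 positive genes, with 22 genes, was a signal at least 1.5-fold higher with high fat in FR30 offspring and within 1.5-fold in controls. A further 12 were within 1.5-fold in FR30 offspring and lower with high fat in controls. Of the 16 negative genes, 10 were within 1.5-fold in FR30 offspring and higher with high fat in controls, and 4 were lower with high fat in FR30 offspring and within 1.5-fold in controls.

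Among the 45 positive genes the highest signal was in HF-fed FR30 liver for 24 genes and in control liver for 19. The lowest was in FR30 liver for 27 genes and in HF-fed control liver for 18. Among the 16 negative genes the highest signal was in FR30 liver for 7 genes and in HF-fed control liver for 9, and the lowest was in HF-fed FR30 liver for 7 and in control liver for 9. Such an order is in part fixed by the choice of these genes. The same genes can be read across prenatal groups: 28 of the 45 positive genes were at least 1.5-fold lower in FR30 than in control liver, 25 were at least 1.5-fold higher in HF-fed FR30 than in HF-fed control liver, and 10 were both. The difference of differences is also the prenatal difference on the high-fat diet minus that on the standard diet. These counts therefore follow largely from the choice of the genes, and setting them beside the shares over all genes tests nothing. Over all genes, FR30 liver was at least 1.5-fold higher than control liver for 0.62% and lower for 0.799%, and HF-fed FR30 liver was higher than HF-fed control liver for 0.644% and lower for 0.465%. A single sample at least 1.5-fold away from 3 similar ones accounted for 56 genes in all (0.668%), 16 of them among the 61, which were chosen on the same signals.

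**Figure D2:**
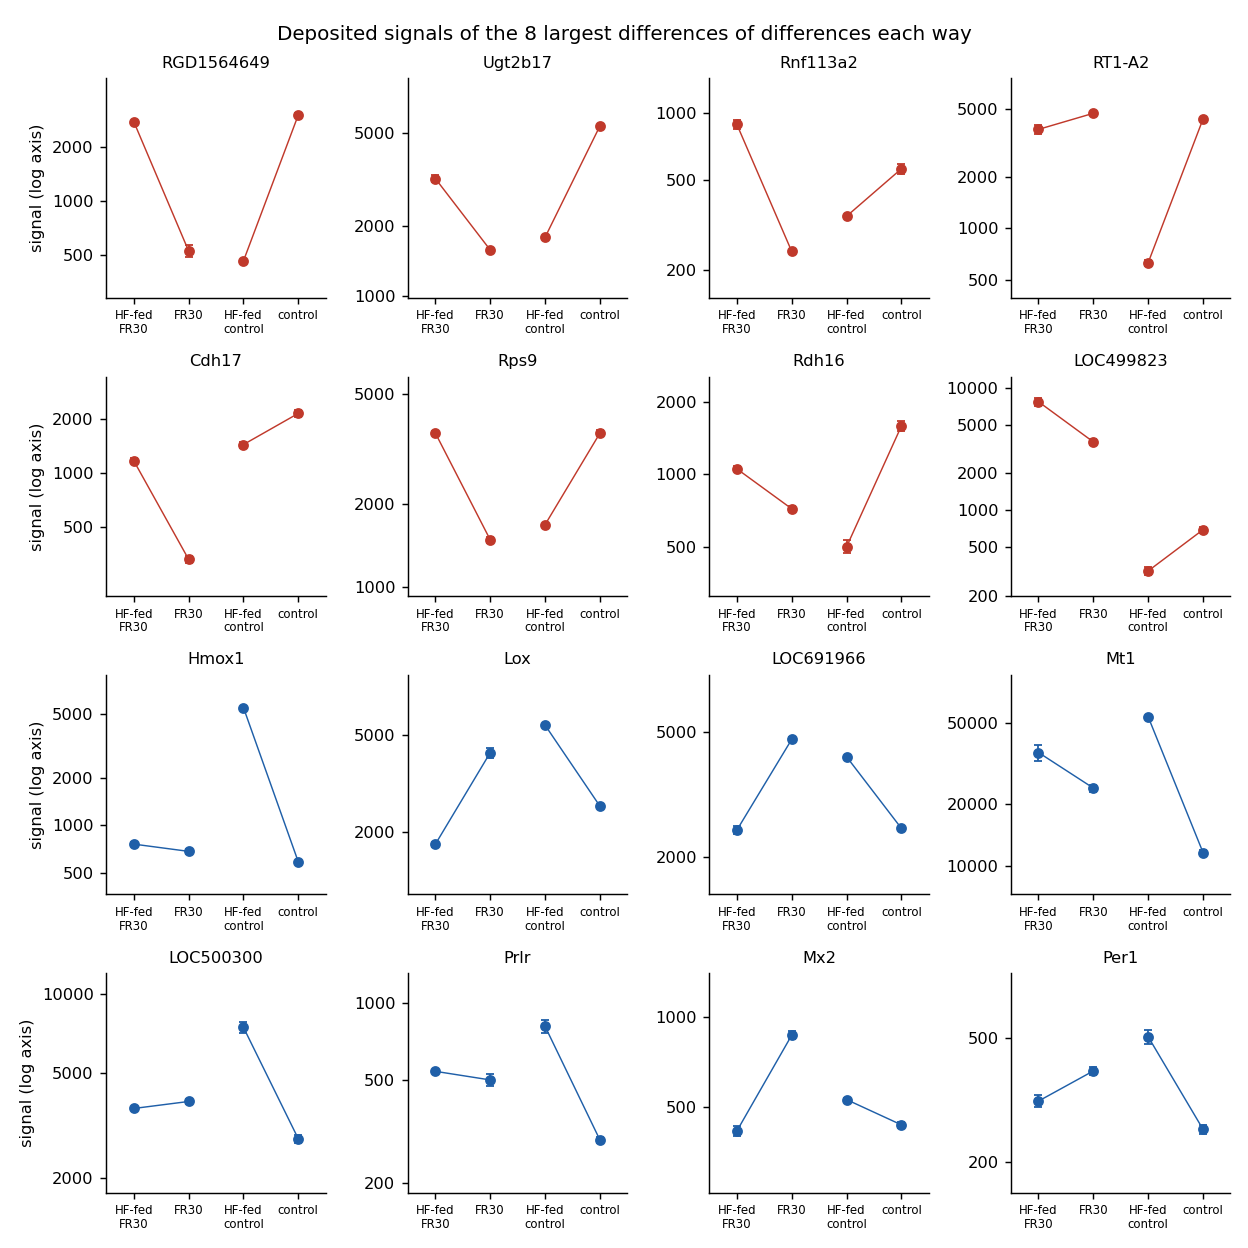
Deposited signals (log axis, a different range in each panel) of the 8 largest positive (red) and 8 largest negative (blue) differences of differences in HF-fed FR30, FR30, HF-fed control and control liver. Points are the deposited signals, bars the deposited STDEVs, and lines join both diets of a prenatal group. In RGD1564649 and Rps9 the lines slope in opposite directions, while in Hmox1 a single high sample, HF-fed control at 5520.3, stands apart.

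Enzymes that conjugate steroids and drugs formed the list with the highest median. Of 11 glucuronosyltransferases and sulfotransferases that met the rule, 10 were above 0, 5 were at least 1.5-fold positive and 0 negative, with a median of 0.51; over all genes 3.55% were at least 1.5-fold from 0, 2.08% positive and 1.48% negative. Ugt2b17, which glucuronidates steroids, had a signal of 3201 in HF-fed FR30 and 1583 in FR30 liver, against 1789.6 in HF-fed control and 5367 in control liver. The high pair was HF-fed FR30 and control and the low pair FR30 and HF-fed control, for a difference of differences of 2.60 ± 0.06. Ugt2a3, of the same family, had the same order of pairs, with 1076 in HF-fed FR30 and 555 in FR30 liver, against 663 in HF-fed control and 1535 in control liver and a difference of 2.17 ± 0.14. Ugt1a6, which acts on small phenols, read 578 in HF-fed FR30, 365 in FR30, 386 in HF-fed control and 469 in control liver (0.95 ± 0.12), and Ugt1a1, the enzyme that conjugates bilirubin, 6542 in HF-fed FR30, 4236 in FR30, 3797 in HF-fed control and 4559 in control liver (0.89 ± 0.10). Both of these UGT1 enzymes were highest in HF-fed FR30 liver. Ugt2b17 and Ugt2a3 were highest in control liver. Ugt2b, another UGT2 entry and just under 2-fold, was highest in HF-fed FR30 liver and low in FR30 liver alone. It read 37691 in HF-fed FR30 and 19654 in FR30 liver, against 31743 in HF-fed control and 32619 in control liver (0.98 ± 0.10). UGT1 enzymes share most of their transcript, and which of them each probe binds was not tested. The phenol sulfotransferase Sult1a1 had a difference of 0.73 ± 0.13, the hydroxysteroid sulfotransferase Sult2a6 0.51 ± 0.07 and the estrogen sulfotransferase Sult1e1 0.25 ± 0.08. LOC501086, which the file describes as similar to a sulfotransferase of the 1C family, was low in 1 sample only, with 1309.6 in HF-fed FR30 and 528 in FR30 liver, against 1492 in HF-fed control and 1251 in control liver (1.06 ± 0.11).

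Nr1i3 encodes CAR, the nuclear receptor that drives Cyp2b cytochromes, glucuronosyltransferases and glutathione transferases in rodent liver. Its signal was 2439.9 in HF-fed FR30 and 673 in FR30 liver, against 1020.3 in HF-fed control and 894 in control liver. HF-fed FR30 liver was the highest and FR30 liver the lowest, and the difference of differences was 1.67 ± 0.12. Cyp2b15, a Cyp2b cytochrome, was high in HF-fed FR30 liver alone, at 1858 in HF-fed FR30 and 776 in FR30 liver, against 929 in HF-fed control and 945 in control liver (1.28 ± 0.14). The other nuclear receptor for foreign compounds, Nr1i2 or PXR, had a difference of 0.18 ± 0.14. Across 11 genes of the cytochrome and xenobiotic list the median was 0.02, with 1 gene at least 1.5-fold positive, Nr1i3 itself, and 0 negative. Of these 11 genes 6 were above 0 and 5 below, the lowest being Ephx1 at -0.50 ± 0.09. Control of other genes by Nr1i3 was not tested. Glutathione transferase Gsta3 (Yc2 in the file) read 613 in HF-fed FR30, 185 in FR30, 328 in HF-fed control and 213 in control liver, at 1.10 ± 0.12, and Gstm2 read 10129.8 in HF-fed FR30, 6698 in FR30, 5616 in HF-fed control and 7882 in control liver, at 1.09 ± 0.09. Both were highest in HF-fed FR30 liver, and both diet differences of Gsta3 were positive. Gsta3 lies close to the background of the array in FR30 liver, and its difference was 1.91 after background correction.

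Several oxidising enzymes outside the fixed lists also had large values. Rdh16 (Rdh2 in the file), a dehydrogenase that oxidises retinol and steroids, had a signal of 1054 in HF-fed FR30 and 719 in FR30 liver, against 501 in HF-fed control and 1588 in control liver, with a difference of 2.22 ± 0.12. Control liver was highest and HF-fed control liver lowest. The carotenoid-cleaving oxygenases Bco1 and Bco2 (Bcmo1 and Bcdo2 in the file) differed by less than 1.5-fold with diet in each prenatal group, in opposite directions. Bco1 read 969.6 in HF-fed FR30, 678 in FR30, 653 in HF-fed control and 915 in control liver, for a difference of 1.003 ± 0.07. Bco2 read 591 in HF-fed FR30, 397 in FR30, 386 in HF-fed control and 555 in control liver, for 1.10 ± 0.15. These were the 2 called genes with both diet differences within 1.5-fold. Aldh1a7, an aldehyde dehydrogenase, was higher on the high-fat diet in both prenatal groups, with 1872 in HF-fed FR30 and 211 in FR30 liver, against 758 in HF-fed control and 255 in control liver and log2 diet differences of 3.15 in FR30 and 1.57 in control offspring. The difference between them was 1.58 ± 0.20. Aldehyde oxidase Aox3 was negative, at 1228 in HF-fed FR30 and 3304 in FR30 liver, against 1609.9 in HF-fed control and 1854 in control liver (-1.22 ± 0.10), with FR30 liver the highest. Dhrs7, another short-chain dehydrogenase, was high in control liver alone, with 7346 in HF-fed FR30 and 5202 in FR30 liver, against 4932 in HF-fed control and 11668 in control liver (1.74 ± 0.10).

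The largest value of all belonged to a ribosomal protein model. RGD1564649, which the file describes as similar to 40S ribosomal protein S9, read 2775 in HF-fed FR30 and 526 in FR30 liver, against 462 in HF-fed control and 3019 in control liver, which gives 5.11 ± 0.12. Both diet differences exceeded 5-fold, in opposite directions. Rps9 itself, a protein of the small ribosomal subunit, showed the same pairing of samples at a smaller size, with 3619 in HF-fed FR30 and 1482 in FR30 liver, against 1679 in HF-fed control and 3609.7 in control liver and a difference of 2.39 ± 0.06. The other 15 ribosomal protein genes that met the rule lay between -0.46 (Rps14) and 0.20 (Rps23), and the median of the list was -0.03. Which transcript each of the S9 probes binds was not tested. RGD1562905, described as similar to ribosomal protein L17, was low in FR30 liver alone, at 1507 in HF-fed FR30 and 534 in FR30 liver, against 1373 in HF-fed control and 1389 in control liver (1.51 ± 0.11). RGD1562971, described as similar to ribosomal protein L21, was on the negative side at -1.15 ± 0.19, from signals between 192 and 354.

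Adjacent class I histocompatibility genes went opposite ways. RT1-A2 and RT1-A1 encode classical class I molecules of the rat, which present peptides to T cells, and no other protein-coding gene lies between them in the RefSeq annotation. RT1-A2 was low in HF-fed control liver alone, with 3787 in HF-fed FR30 and 4705 in FR30 liver, against 628 in HF-fed control and 4355 in control liver and a difference of 2.48 ± 0.10. RT1-A1 was highest in that same sample, with 2716 in HF-fed FR30 and 3702 in FR30 liver, against 5228 in HF-fed control and 3313 in control liver and a difference of -1.10 ± 0.09. Cross-binding of their probes was not tested. Of 11 antigen presentation genes 1 was at least 1.5-fold positive, RT1-A2, and 1 negative, the immunoproteasome subunit Psmb8, with 5468 in HF-fed FR30 and 9082 in FR30 liver, against 7282 in HF-fed control and 7469.7 in control liver (-0.70 ± 0.09). The median was -0.08. LOC499823, a predicted model of unstated function, was far higher in both FR30 samples, with 7726 in HF-fed FR30 and 3625 in FR30 liver, against 319 in HF-fed control and 694 in control liver, and its diet differences were opposite (2.21 ± 0.19).

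Among lipid synthesis genes that met the rule, those past 1.5-fold were a regulator and both desaturases of polyunsaturated fatty acids, all positive. Srebf1, which encodes the transcription factor SREBP-1 that drives fatty acid synthesis, read 4309.6 in HF-fed FR30 and 2872 in FR30 liver, against 3018 in HF-fed control and 4447 in control liver. Its high pair was HF-fed FR30 and control liver, and its difference was 1.14 ± 0.08. Fads2, the delta-6 desaturase, read 1562 in HF-fed FR30, 1233 in FR30, 967 in HF-fed control and 1311 in control liver (0.78 ± 0.15). Fads1, the delta-5 desaturase, was low in HF-fed control liver alone, at 4064 in HF-fed FR30 and 4158 in FR30 liver, against 1819.8 in HF-fed control and 3095 in control liver (0.73 ± 0.09). These were the 3 of 8 genes of fatty acid and triglyceride synthesis at least 1.5-fold positive (2.08% over all genes), with 0 negative and a median of 0.37. Gpam and Lpin1, which act in triglyceride synthesis, had differences of 0.32 ± 0.13 and 0.26 ± 0.13. Scd, the stearoyl-CoA desaturase, and the list members Acly, Acss2, Me1 and Thrsp were over the STDEV limit in FR30 liver and were not compared. Thrsp was lower with high fat in FR30 offspring and higher in controls. It read 3785 in HF-fed FR30 and 5257 in FR30 liver, against 4953 in HF-fed control and 3117 in control liver. Scd, Acly and Acss2 were lower and Me1 higher with high fat in both prenatal groups. The count of 0 negative genes leaves these members out.

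Sterol and bile acid genes lay on both sides of 0. Fdft1, squalene synthase of the cholesterol pathway, was low in HF-fed control liver alone, at 1277 in HF-fed FR30 and 1208 in FR30 liver, against 724 in HF-fed control and 1203 in control liver (0.81 ± 0.10). Of 19 genes of cholesterol synthesis and uptake, 14 lay above 0 (4012 of 8384 over all genes), and the median was 0.12. Cyp7a1, which starts the classical route of bile acid synthesis, had large diet differences of nearly equal size, with 3708 in HF-fed FR30 and 766 in FR30 liver, against 4428 in HF-fed control and 1159 in control liver, and its difference of differences was 0.34 ± 0.10. Cyp7b1, of the alternative bile acid pathway, was high in HF-fed FR30 liver alone, at 1273 in HF-fed FR30 and 558 in FR30 liver, against 807 in HF-fed control and 610.5 in control liver (0.79 ± 0.11), and Slc27a5, which activates bile acids for conjugation, had a difference of 0.60 ± 0.12. The sterol exporter subunit Abcg5 was low in control liver alone, at 1772 in HF-fed FR30 and 1629 in FR30 liver, against 2113 in HF-fed control and 1008 in control liver (-0.95 ± 0.10). The 14 bile acid genes had a median of 0.02.

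Genes of amino acid breakdown were among those with positive values. Gpt, alanine aminotransferase, read 7013 in HF-fed FR30 and 4911 in FR30 liver, against 4156 in HF-fed control and 8693 in control liver, with a difference of 1.58 ± 0.13. Ass1, argininosuccinate synthase of the urea cycle, read 28583 in HF-fed FR30, 20849 in FR30, 23357 in HF-fed control and 27230.4 in control liver (0.68 ± 0.08), and Gls2, liver glutaminase, 8265 in HF-fed FR30, 6649 in FR30, 7044 in HF-fed control and 9025 in control liver (0.67 ± 0.08). In all 3 the high-fat sample exceeded the standard one in FR30 offspring and was below it in controls. Of 18 urea cycle and amino acid genes 16 were above 0 (4012 of 8384 over all genes), 3 (Ass1, Gls2 and Cbs) were at least 1.5-fold positive and 0 negative, and the median was 0.25. The periportal zone, the part of the lobule in which several of these enzymes are concentrated, shares Sds, Ass1, Gls2, Arg1 and Pck1 with these and the glucose lists, and its 10 genes had a median of 0.33. The pericentral zone had a median of 0.16. Sds, serine dehydratase, was lower on the high-fat diet in both prenatal groups, at 1732 in HF-fed FR30 and 2972 in FR30 liver, against 1587 in HF-fed control and 4782 in control liver (0.81 ± 0.10). Mat1a, the liver enzyme that makes S-adenosylmethionine, had a difference of 1.02 ± 0.05, and Sardh, sarcosine dehydrogenase, 0.94 ± 0.10.

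Glucose genes gave no common direction. G6pc1, the catalytic subunit of glucose-6-phosphatase, was lowest in HF-fed FR30 liver, at 6857 in HF-fed FR30 and 12253 in FR30 liver, against 9680.4 in HF-fed control and 10453 in control liver (-0.73 ± 0.04). Pck1, the rate-limiting enzyme of gluconeogenesis, had a difference of -0.27 ± 0.10. Pfkfb1, which sets the level of fructose 2,6-bisphosphate, was high in HF-fed FR30 liver alone, at 1874 in HF-fed FR30 and 930.5 in FR30 liver, against 1127 in HF-fed control and 1003 in control liver (0.84 ± 0.12). Among 12 gluconeogenesis genes 3 were at least 1.5-fold positive and 1 negative (2.08% and 1.48% over all genes), with a median of 0.10. Among 14 of glycolysis and glycogen none was past 1.5-fold. Of 19 genes of fatty acid oxidation and ketogenesis 1 was past 1.5-fold: Fgf21, the liver hormone of fasting, highest in HF-fed control liver, at 329 in HF-fed FR30 and 405 in FR30 liver, against 529 in HF-fed control and 396 in control liver (-0.72 ± 0.13). Cpt1a, which admits fatty acids to mitochondria, had a difference of -0.40 ± 0.10. The 17 respiratory chain and ATP synthase genes lay close together, 15 of them above 0 (4012 of 8384 over all genes), with a median of 0.12 and none past 1.5-fold.

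Hmox1 gave the largest negative value. It encodes heme oxygenase, which breaks down heme and is induced by oxidative stress. Its signal was 761 in HF-fed FR30 and 685 in FR30 liver, against 5520.3 in HF-fed control and 588 in control liver, so that HF-fed control liver alone was high, and the difference was -3.08 ± 0.06. No other gene of the 12 in the heme and iron list was past 1.5-fold, and their median was -0.07. Other targets of NRF2, the transcription factor of the oxidative stress response, were spread on both sides: Gclm and Txnrd1, also highest in HF-fed control liver, had differences of -0.42 ± 0.08 and -0.36 ± 0.08, Gsr had 0.56 ± 0.10, Gsta3 and Gstm2, given above, are the 2 called positive members, and the median over 14 was -0.01.

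Mt1 (Mt1a in the file) encodes a metallothionein, a small metal-binding protein induced by zinc, glucocorticoids and stress. Its signal was 35761 in HF-fed FR30 and 23957 in FR30 liver, against 53443 in HF-fed control and 11586 in control liver. It was higher on the high-fat diet in both prenatal groups and by more in controls, with log2 diet differences of 0.58 in FR30 and 2.21 in control offspring and a difference between them of -1.63 ± 0.14. Its promoter is shown because metallothionein genes are the known targets of the zinc-sensing factor MTF1. The 250 bases before its start (RefSeq, GRCr8, chr19:10832976-10833225, minus strand, written 5′ to 3′) hold 3 matches to the core of the metal response element, TGCGCNC, on either strand, in capitals. That core occurs in 11.8% of 33469 promoters of the same length and in 4 of the 35 called genes with a promoter in the table, a description of letters and not of binding.
Mt1: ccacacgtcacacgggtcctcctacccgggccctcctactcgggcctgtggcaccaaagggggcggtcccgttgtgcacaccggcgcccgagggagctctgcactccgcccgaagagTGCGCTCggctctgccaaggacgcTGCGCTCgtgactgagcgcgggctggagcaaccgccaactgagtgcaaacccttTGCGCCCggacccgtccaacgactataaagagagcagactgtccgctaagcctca
Of the zinc transporters, Slc39a4 had a difference of 0.65 ± 0.13 and Slc30a1, itself a known MTF1 target, 0.19 ± 0.14. The 5 genes of the metallothionein and zinc list had a median of 0.04.

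Early response genes were led by Gadd45g and Dusp1. Gadd45g, a growth arrest gene induced by stress and fasting, was high in control liver alone, with 582 in HF-fed FR30 and 489 in FR30 liver, against 449.5 in HF-fed control and 1617 in control liver (2.10 ± 0.19). Dusp1, a phosphatase that switches off MAP kinases, was also highest in control liver, with 5882 in HF-fed FR30 and 6937 in FR30 liver, against 4382 in HF-fed control and 10381 in control liver (1.01 ± 0.09), just past 2-fold. Egr1, another immediate early gene, was high in HF-fed control liver alone and on the negative side, at 382 in HF-fed FR30 and 284 in FR30 liver, against 961 in HF-fed control and 358 in control liver (-0.998 ± 0.13). Among 16 genes of the list 3 were at least 1.5-fold positive and 1 negative (2.08% and 1.48% over all genes), with a median of 0.20. Gadd45a, Btg2, Junb and Jun, the next in size, were each highest in control liver and had differences between 0.50 and 0.63. The promoters of Gadd45g (chr17:13530352-13530601, minus strand) and Dusp1 (chr10:17184603-17184852, plus strand) are shown because both genes had their highest signal in the same sample, each as the 250 bases before the start (RefSeq, GRCr8), 5′ to 3′. Capitals mark the E-box CACGTG in both and the cyclic AMP response element TGACGTCA, which precedes it in Dusp1. Both motifs read the same on either strand and do not overlap here. The E-box occurs in 5.59% of the 33469 promoters and in these 2 of 35 called genes, and the cyclic AMP element in 1.59% and in Dusp1 alone among the 35.
Gadd45g: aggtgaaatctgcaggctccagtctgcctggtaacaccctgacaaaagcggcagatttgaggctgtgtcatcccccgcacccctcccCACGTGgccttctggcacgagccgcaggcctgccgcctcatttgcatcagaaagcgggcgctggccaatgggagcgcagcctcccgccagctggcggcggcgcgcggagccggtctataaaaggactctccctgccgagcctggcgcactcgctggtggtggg
Dusp1: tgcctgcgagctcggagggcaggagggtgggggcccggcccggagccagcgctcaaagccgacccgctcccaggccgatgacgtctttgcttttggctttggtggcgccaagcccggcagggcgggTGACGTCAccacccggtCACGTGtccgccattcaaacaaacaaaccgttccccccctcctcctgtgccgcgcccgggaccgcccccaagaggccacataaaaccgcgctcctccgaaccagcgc

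Clock genes were split. Per1, a repressor of the circadian clock that glucocorticoids also induce, was highest in HF-fed control and lowest in control liver, with 314 in HF-fed FR30 and 393 in FR30 liver, against 506 in HF-fed control and 255 in control liver (-1.31 ± 0.12). Npas2 had a difference of 0.82 ± 0.12, Bhlhe40 of 0.80 ± 0.10 and Cry1 of 0.62 ± 0.12, all 3 highest in control liver. Of the core activator Bmal1 and the repressor Per2, neither was past 1.5-fold, at 0.22 ± 0.10 and -0.10 ± 0.08. The 8 clock genes had a median of 0.15.

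The largest values among interferon genes were negative, with FR30 liver highest. Mx2, an antiviral GTPase, was high in FR30 liver alone, at 418 in HF-fed FR30 and 868 in FR30 liver, against 531 in HF-fed control and 438 in control liver (-1.33 ± 0.08). Irf7, the interferon regulatory factor, read 504 in HF-fed FR30, 965 in FR30, 584 in HF-fed control and 722 in control liver (-0.63 ± 0.10), and Mx1 254 in HF-fed FR30, 354 in FR30, 319 in HF-fed control and 298 in control liver (-0.58 ± 0.13). Of 11 interferon genes 7 were below 0, against 4372 of 8384 over all genes, 0 were at least 1.5-fold positive and 2, Mx2 and Irf7, negative, and the median was -0.17. Mx1, just under 1.5-fold here, was at -1.06 after background correction. The 7 Kupffer cell and macrophage markers were all below 0, between -0.36 (C1qa) and -0.02 (Adgre1), with none past 1.5-fold. Their summed signal was 4400.9 in HF-fed FR30 and 4782.7 in FR30 liver, against 4487.7 in HF-fed control and 4194.4 in control liver. Cd14, the endotoxin coreceptor, which is not on that list, was positive, at 4096 in HF-fed FR30 and 1743 in FR30 liver, against 2460.5 in HF-fed control and 3002 in control liver (1.52 ± 0.11).

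The chaperone lists leaned to the negative side, and none of their members reached 2-fold. Of 14 endoplasmic reticulum stress genes 12 were below 0, against 4372 of 8384 over all genes, with a median of -0.26. In that list 1 was at least 1.5-fold negative (1.48% over all genes) and 0 positive. Herpud1, which aids the breakdown of misfolded proteins, was low in control liver alone, at 4640.2 in HF-fed FR30 and 4437 in FR30 liver, against 4802 in HF-fed control and 2698 in control liver (-0.77 ± 0.10). The cochaperone Dnajb9 read 2464 in HF-fed FR30, 3023 in FR30, 2145 in HF-fed control and 1779 in control liver (-0.57 ± 0.09). Among 7 heat shock genes, Dnajb1 was at least 1.5-fold negative, at 2472 in HF-fed FR30 and 3521 in FR30 liver, against 2603 in HF-fed control and 2195 in control liver (-0.76 ± 0.11), and the median was -0.17. LOC306428 and RGD1561154, which the file describes as similar to heat shock proteins of the 70-kilodalton family, passed 2-fold at -1.06 ± 0.28 and -1.20 ± 0.25. Their propagated STDEVs were among the widest of the called genes.

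Genes under growth hormone and sex control included called members on each side. Hsd3b5, a male-biased steroid reductase of rodent liver, was highest in HF-fed FR30 liver, with 13842 in HF-fed FR30 and 9228 in FR30 liver, against 7718 in HF-fed control and 10454 in control liver (1.02 ± 0.06). A pair of α2u-globulin models, male-biased urinary proteins of rat liver, were positive: LOC366380 read 2186 in HF-fed FR30, 775 in FR30, 953 in HF-fed control and 1412 in control liver (2.06 ± 0.13) and LOC500473 2773 in HF-fed FR30, 2052 in FR30, 1856 in HF-fed control and 3099 in control liver (1.17 ± 0.09). Obp3, another member of that family, had a difference of 0.81 ± 0.10, and the transcripts of this family are alike enough that their probes may not tell them apart. Srd5a1, steroid 5-alpha reductase, was negative at -0.91 ± 0.10. The 10 male-biased genes had a median of 0.12. On the female-biased side Prlr, the prolactin receptor, was lowest in control and highest in HF-fed control liver, at 542 in HF-fed FR30 and 502 in FR30 liver, against 809.9 in HF-fed control and 294 in control liver (-1.35 ± 0.12). Cyp2c12 read 3388 in HF-fed FR30 and 2347 in FR30 liver, against 7481 in HF-fed control and 9141 in control liver (0.82 ± 0.13). Both its diet differences were within 1.5-fold. The FR30 sample was 2.2-fold lower than the control sample on the high-fat diet and 3.9-fold lower on the standard diet. The median of 4 female-biased genes was 0.38. Onecut1, a hepatocyte transcription factor, was lower on the high-fat diet in both prenatal groups, at 1605 in HF-fed FR30 and 6013 in FR30 liver, against 1801 in HF-fed control and 3562 in control liver (-0.92 ± 0.13).

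Several of the largest values belong to no list. Lox, lysyl oxidase, which crosslinks collagen, was opposite in the 2 prenatal groups, with 1789 in HF-fed FR30 and 4235 in FR30 liver, against 5496 in HF-fed control and 2565 in control liver and a difference of -2.34 ± 0.09. Collagen Col3a1 had a difference of -0.22 ± 0.20, and none of the 5 stellate cell and matrix genes was past 1.5-fold. LOC691966, described as similar to sulfide:quinone oxidoreductase, had the same high and low pairs of samples, with 2436 in HF-fed FR30 and 4734 in FR30 liver, against 4166 in HF-fed control and 2466 in control liver (-1.71 ± 0.05), and so did Sqor, the named gene of that enzyme, at 294 in HF-fed FR30 and 452 in FR30 liver, against 386 in HF-fed control and 302 in control liver (-0.97 ± 0.12), just under 2-fold, and -1.61 after background correction. Mfsd2a, a lysophospholipid transporter, was high in FR30 liver alone, at 1218 in HF-fed FR30 and 2612 in FR30 liver, against 1516 in HF-fed control and 1330.1 in control liver (-1.29 ± 0.17). LOC500300, a hypothetical protein, was high in HF-fed control liver alone, at 3669 in HF-fed FR30 and 3900.2 in FR30 liver, against 7451 in HF-fed control and 2817 in control liver (-1.49 ± 0.09). Pparg, the nuclear receptor of fat storage, read 314 in HF-fed FR30, 432 in FR30, 471 in HF-fed control and 337 in control liver (-0.94 ± 0.27). FR30 liver had the highest sum of adipose markers, and its part in the FR30 values of Lox, Mfsd2a and Pparg was not tested.

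A signal low in FR30 liver alone gives a positive difference of differences by arithmetic, so its share among positive genes is no separate result. Of the 45 genes at least 2-fold positive, 5 were low in FR30 liver alone, a pattern that 15 of all 8384 genes showed. They include Birc6, an inhibitor of apoptosis, at 1012 in HF-fed FR30 and 259.6 in FR30 liver, against 865 in HF-fed control and 1019.7 in control liver (2.20 ± 0.16), Casp12, an endoplasmic reticulum caspase, at 474 in HF-fed FR30 and 218 in FR30 liver, against 378 in HF-fed control and 509.9 in control liver (1.55 ± 0.12), and Creg1, a secreted glycoprotein, at 5439.9 in HF-fed FR30 and 2520.1 in FR30 liver, against 4919.7 in HF-fed control and 4676 in control liver (1.04 ± 0.05). The remaining 2 are RGD1562905 and LOC501086, given above. Cdh17, an adhesion molecule, was also lowest in FR30 liver but varied among the others, at 1178 in HF-fed FR30 and 332 in FR30 liver, against 1449 in HF-fed control and 2162 in control liver (2.40 ± 0.12). Rnf113a2 (Znf183 in the file), a ring finger protein, read 886 in HF-fed FR30 and 242 in FR30 liver, against 347 in HF-fed control and 564 in control liver (2.57 ± 0.10). LOC368066, similar to an N-methyltransferase of indolethylamine, was high in HF-fed FR30 liver alone, at 1468 in HF-fed FR30 and 477 in FR30 liver, against 585 in HF-fed control and 520.2 in control liver (1.45 ± 0.13). Acaa1b, a peroxisomal thiolase, was low in HF-fed control liver alone, at 612 in HF-fed FR30 and 483 in FR30 liver, against 304 in HF-fed control and 539.5 in control liver (1.17 ± 0.19).

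Cell cycle genes gave 2 negative values past 1.5-fold and 0 positive among 10, with 9 below 0 and a median of -0.10. Over all genes 4372 of 8384 were below 0. The replication helicase subunit Mcm6 read 207 in HF-fed FR30, 356 in FR30, 244 in HF-fed control and 242 in control liver (-0.79 ± 0.17), with FR30 liver highest, and was at -1.69 after background correction. Cyclin D1 (Ccnd1) was lower on the high-fat diet in both prenatal groups, at 1139 in HF-fed FR30 and 3081 in FR30 liver, against 1641 in HF-fed control and 2865 in control liver (-0.63 ± 0.13). Of 12 acute phase genes, with a median of -0.08, 1 was past 1.5-fold, Orm1, a plasma glycoprotein, low in HF-fed control liver alone, at 12638 in HF-fed FR30 and 14275 in FR30 liver, against 7917 in HF-fed control and 16382 in control liver (0.87 ± 0.09).

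A globin model and the erythroid markers differed in size. LOC287167, an alpha globin, read 881 in HF-fed FR30 and 184 in FR30 liver, against 305 in HF-fed control and 241 in control liver, with a difference of 1.92 ± 0.15 (3.19 after background correction). The 5 erythroid markers compared, in contrast, had a median of 0.08 and none was past 1.5-fold. Hbb, the beta globin, was higher on the high-fat diet in both prenatal groups, at 18345 in HF-fed FR30 and 10912 in FR30 liver, against 17564 in HF-fed control and 10568 in control liver, and its difference of differences was 0.02 ± 0.09. The summed signal of 7 erythroid genes was 65622.3 in HF-fed FR30 and 47065.3 in FR30 liver, against 68858.9 in HF-fed control and 48375.4 in control liver.

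**Figure D3:**
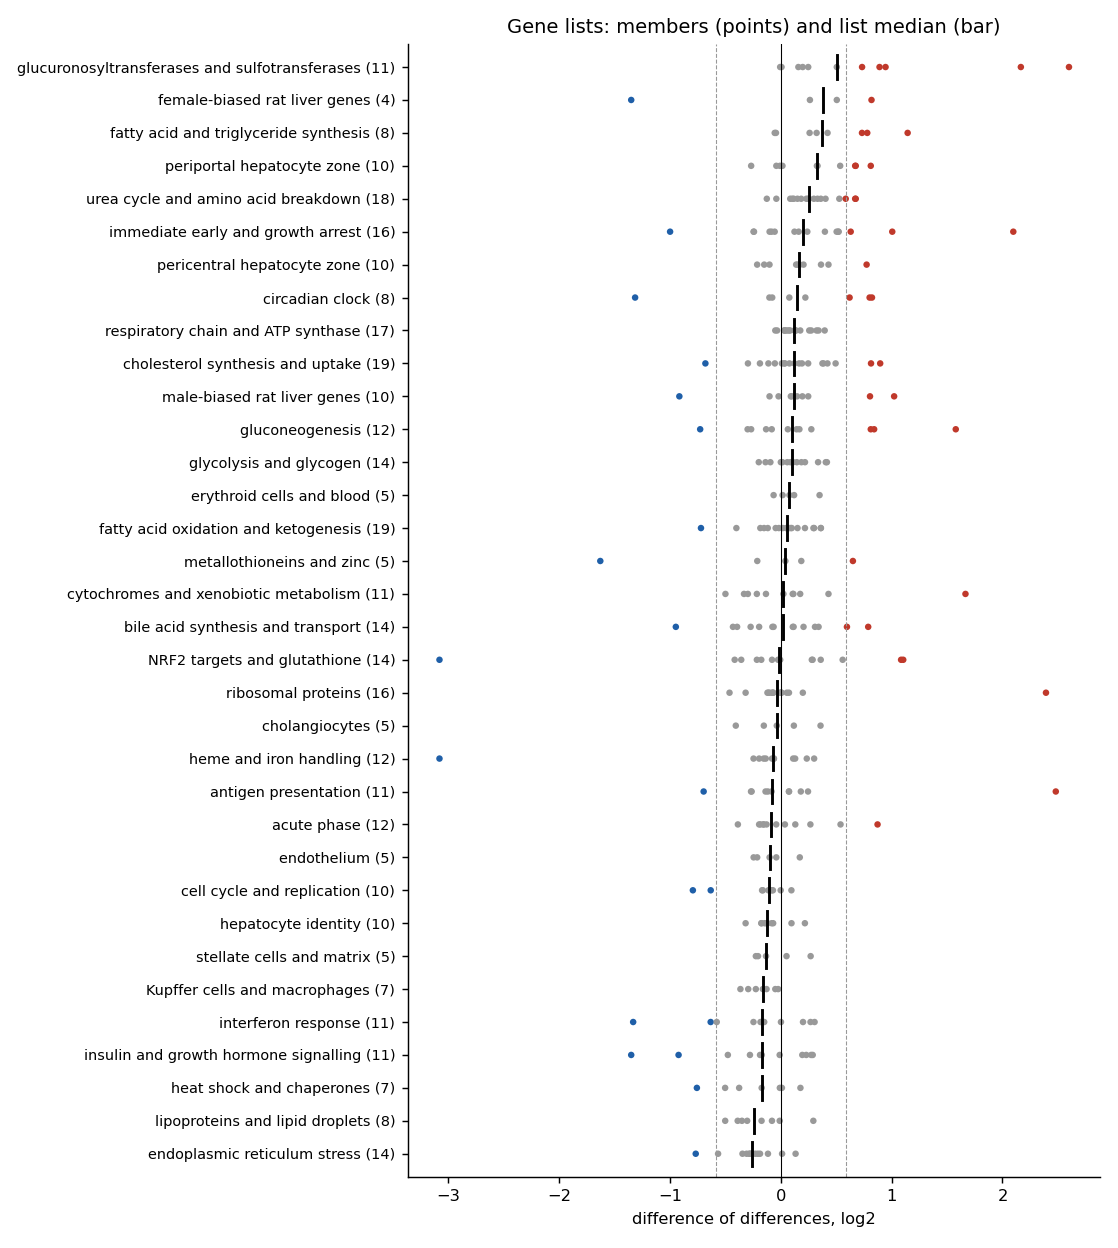
Difference of differences (log2) of each gene that met the rule, by list, with the number compared in brackets. Points are genes, red at least 1.5-fold positive and blue at least 1.5-fold negative, bars are list medians, and dashed lines mark 1.5-fold. Medians run from -0.26 for endoplasmic reticulum stress to 0.51 for glucuronosyltransferases and sulfotransferases, and most lists hold members on both sides.

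Hepatocyte identity genes had a median of -0.12, and 8 of 10 were below 0, against 4372 of 8384 over all genes. After background correction and quantile normalization that median was -0.01. Alb, Ttr, Tf, Serpina1, Fgb and Fgg of this list are among the 69 genes with a mean signal of at least 30000. Those 69 genes had a median of -0.10 in the deposited signals and -0.02 after quantile normalization alone. The part of brightness in the list median was not tested. The lipoprotein and lipid droplet list had 7 of 8 genes below 0 and a median of -0.24. Among the genes compared it was led by Plin2, the coat protein of lipid droplets, at -0.50 ± 0.13. The list median was -0.13 after background correction and -0.11 in the non-normalized table. Lpl, of the same list, was over the STDEV limit in FR30 liver and was not compared. It read 1479 in HF-fed FR30 and 3387 in FR30 liver, against 1339.2 in HF-fed control and 1078.5 in control liver.

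The thresholds can be judged from the genes beside them. Just inside 2-fold lay Bco1 at 1.003 and Dusp1 at 1.01, and Nop58 and LOC306428 at -1.004 and -1.06 on the negative side. Just outside lay the glucuronosyltransferase entry Ugt2b at 0.98, and Egr1 at -0.998 and LOC500436 at -0.98 on the negative side. At the STDEV limit, Dlat and Hspb6 were inside at 19.7% and 19.9% of the signal in FR30 liver, with differences of 0.03 each, and Prnp and Igfbp6 were outside at 20.2% and 20.5%, with 0.41 and -0.22.

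The called genes kept their sign in other versions of the values, and a few near the threshold were no longer past 2-fold. The deposited signals keep a background, estimated at between 153.36 and 153.97 per sample, which compresses differences of dim genes, and after background correction all 61 genes had the same sign and were still past 2-fold. Per1 was then at -2.19, RGD1564649 at 5.91, RGD1562971 at -2.56, Casp12 at 2.69, LOC306428 at -1.62 and Rnf113a2 at 3.87. Of genes under 2-fold as deposited, Npas2 was at 1.43, Pparg at -1.47, Jun at 0.77 and Gpam at 0.66. In the non-normalized table, joined by row order, 58 of the 61 had a value, all 58 had the same sign and 55 were past 2-fold. Of the 61, 60 were past 2-fold after quantile normalization and 59 after centring each sample on its median. Some list medians near 0 changed sign: after background correction the cytochrome and xenobiotic list was at -0.09 and the acute phase list at 0.05. These versions come from the same 4 samples and give no separate support for the calls. Taking a near-equal background off every sample mostly widens differences that were already large. The row order was chosen by matching HF-fed control and control signals to the deposited ones.

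**Figure D4:**
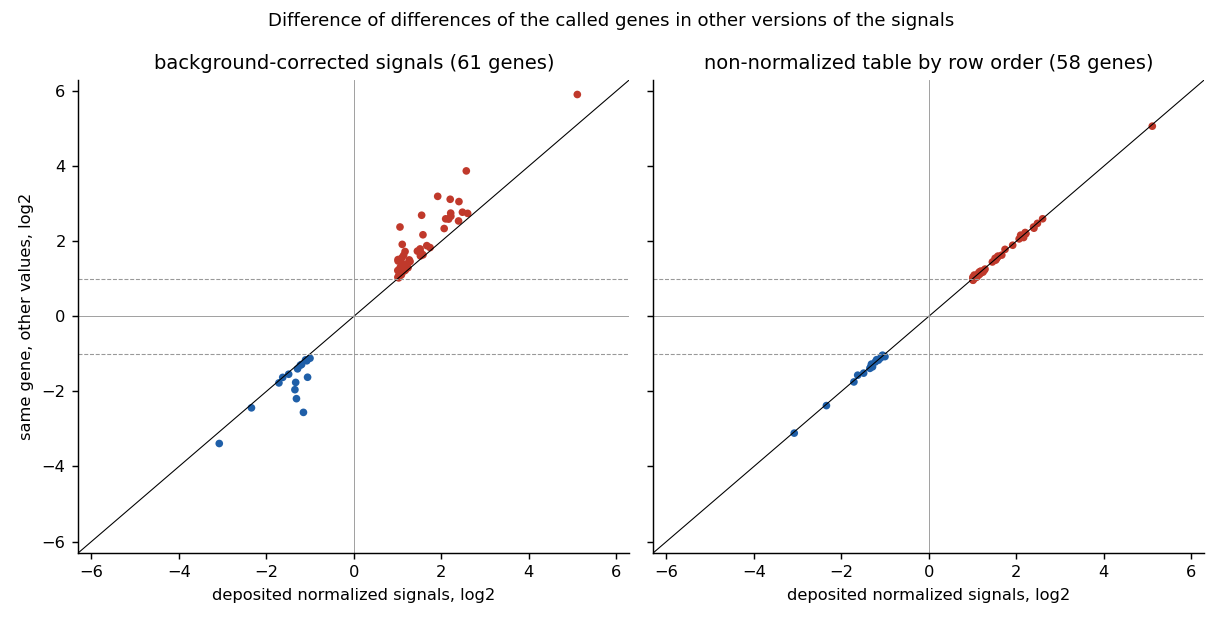
Difference of differences of the called genes (log2) in the deposited normalized signals (x axis) against background-corrected signals (left, 61 genes) and the non-normalized table joined by row order (right, 58 genes). Red points are positive and blue negative genes, the line marks equality and the dashed lines 2-fold. Most background-corrected values lie farther from 0 than the deposited ones, and the non-normalized values lie along the line.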

How the data were processed

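Liver RNA was measured on Illumina expression BeadArrays, 1 sample per group, after Trizol extraction and biotin labelling, per the labels' protocols. The submitters' processing notes name GenomeStudio, and no source used here states the normalization. The authors deposited a normalized signal intensity per gene with a STDEV and a detection p-value, per the file headers; the number of measurements behind a STDEV is not stated. The series matrix held the same deposited intensity for all 21791 rows. The deposited non-normalized intensity, a value per probe, is out of step with its identifiers (Pearson r of log2 values at most 0.0658 across genes, which are not independent replicates). Its rows were joined by order with an alignment that used the HF-fed control and control samples only. In HF-fed FR30 and FR30 liver, which the alignment did not use, r was then 0.9995 and 0.9987 over 20014 clear pairings. The alignment left 703 genes without a row.

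Symbols were updated through a RefSeq table (GRCr8, used for names and neighbours), in which 9918 rows were current and 4820 matched a synonym, while 6936 stayed as in the file and 117 lacked a symbol. The row with the highest mean intensity was kept per gene. Detection p-values of 563 rows lie off the steps that other rows share, and what the authors did to make them is not stated. The log2 of the deposited signals, with no pseudocount, gave the difference of differences, and its error is the root of the summed squares of STDEV over signal, in log2 units. A value was called at 2-fold; pairs and list members were counted at 1.5-fold. No test was made. The arithmetic was tested on simulated data. Background correction used limma 3.58.1 in R 4.3.3 with an offset of 16; other steps used pandas 2.3.3, numpy 2.4.6, numba 0.67.0 and matplotlib 3.10.9 under Python 3.11.15. Precision is limited by the number of arrays.

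The genes compared and the 39 gene lists were chosen with earlier results of these data known. Genes named are the 15 largest values each way, up to 5 per combination of diet differences and per one-sample pattern, up to 4 per list, those beside each threshold, and always Cyp7a1, Scd, Cpt1a, Pck1, G6pc1, Hmox1 and Srebf1. Olr59, Cd14, Mat1a, LOC500473, Sult1a1, Nr1i2, Gclm, Txnrd1, Gpam, Lpin1, Hbb, Bmal1, Per2 and a few list members beside them lie outside that rule and were named after their values were seen. Lists not described in the report, those of insulin signalling, endothelial, cholangiocyte, lymphocyte, pancreas and neutrophil genes, had medians between -0.21 and 0.32, and no neutrophil gene was compared. Some genes that the rule picks are not reported here.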

Additional observations from a re-analysis of the deposited data

Results flagged for a closer look

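In 9 genes the high-fat sample differed from its standard-diet sample by at least 1.5-fold in both prenatal groups and in opposite directions. With 1 sample per group none of these differences was tested. RGD1564649 (difference of differences 5.11), Ugt2b17 (2.60), Rnf113a2 (2.57), Rps9 (2.39), LOC499823 (2.21), Ugt2a3 (2.17) and Olr59 (1.22) were higher with the high-fat diet in FR30 and lower in control offspring. Olr59, an olfactory receptor in the file's naming, read 2674 in HF-fed FR30, 1735 in FR30, 2406 in HF-fed control and 3646 in control liver. Lox (-2.34) and LOC691966 (-1.71) were lower on the high-fat diet in FR30 and higher in control offspring.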

How the results depend on the processing

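The background of the signals was the choice that mattered most. After normal-exponential correction with quantile normalization 93 genes were at least 2-fold positive and 71 negative, against 45 and 16 as reported, 27 differed in opposite directions with diet (9 as reported) and 160 had a one-sample pattern (56 as reported). With a single background level per sample subtracted and a floor of 16, these counts were 139, 102, 40 and 230. That level, between 153.2 and 153.8, was the median signal of genes with a mid-range detection p. All 61 reported genes were past 2-fold with the same sign under both, an outcome largely fixed by taking a near-equal background off every sample. Without the STDEV limit 27 genes were 2-fold negative. At 1.5-fold the counts were 174 positive and 124 negative, and at 3-fold 15 and 4. Under quantile normalization, median centring, stricter limits on STDEV, detection or signal, the mean of a gene's rows, the non-normalized table and the series matrix, the positive count lay between 38 and 45 and the negative count between 12 and 17, and no called value turned its sign. Counting single genes and list medians too, 93 and 95 values moved by more than their spread under the background alternatives and between 0 and 8 under each of the others. The recount of one-sample patterns was added after seeing the data. No paired analysis was possible because each group has 1 sample, and the sample titles carry no replicate number. The deposited signals keep the background, so differences of genes under a signal of about 300 are understated.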
